A study of Mus musculus with 6 samples.

Results

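The Nlrp genes described here are 10 mouse oocyte NLR genes that were listed apart from the subcortical maternal complex. They are Nlrp2, Nlrp14, 5 Nlrp4 genes (Nlrp4a, Nlrp4b, Nlrp4c, Nlrp4e and Nlrp4f) and the Nlrp9 genes (Nlrp9a, Nlrp9b and Nlrp9c). They were taken by name, and each probe set that the platform annotation assigns to 1 of these symbols was used. Of the 10 genes, 9 had a probe set, among 18193 genes with a probe set of 1 symbol on the array. Nlrp9c had 2 probe sets and the other genes 1 each, which gave 10 probe sets. Nlrp2 had none and has no value here. No probe set carried a member's symbol together with another. Probe sequences were not used here, so whether a probe set of one Nlrp4 or Nlrp9 gene also takes up RNA of its close relatives was not tested; this limits each value of these genes and each ratio between them.

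NLR proteins are intracellular sensors built from a central nucleotide-binding NACHT domain and a run of leucine-rich repeats, and the Nlrp subgroup adds a pyrin domain at the amino end. Some of them, such as Nlrp3, assemble inflammasomes in immune cells, platforms that activate caspase-1. A separate branch is transcribed mainly in oocytes, where the mRNA is stored during growth and used until the embryo's own genome is switched on. Nlrp5, also called Mater, is the best known of this branch and a core part of the subcortical maternal complex.

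The samples were fully grown germinal vesicle (GV) oocytes, which wait in the first meiotic prophase and still have their nucleus. One group came from XX females and the other from XY females of B6.Y(TIR), mice that carry a Y chromosome of the TIR type on the C57BL/6 background and can develop as females. Both groups had the same age (25 to 29 days) and the same hormone treatment, 5 IU of equine chorionic gonadotropin given 45 to 47 hours before collection, and the XX females were littermates of the XY ones. Oocytes were freed of cumulus cells by pipetting, and the XO females and growing oocytes that the protocol mentions were not analysed here. RNA of 10 oocytes was isolated for each of 3 XX and 3 XY females and labelled in a pair of amplification rounds primed from the poly(A) tail, so a fall in every oocyte and a larger fall in some of them cannot be told apart. The arrays are called XX 1 to XX 3 and XY 1 to XY 3 after their replicate numbers, which name separate biological samples.

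The Y-linked ubiquitin-activating enzyme gene Uba1y checked the labels: its brighter probe set read 13.6, 26.8 and 5.91 on the XX arrays and 4631, 3565 and 3793 on the XY arrays. The deposited values were not on one scale, with array medians of 24.5 to 31.4 and means after trimming 2% at each end of 194 to 332. Values were therefore quantile-normalized, which gives each array the same distribution, and compared as log2(intensity + 9). On this scale the median log2 change of the 12442 genes tested, XY minus XX, was 0.07. The log2 ratio of the 3′ to the 5′ control of Actb, a measure of how far the labelled RNA reaches from its 3′ end, stood at 5.53 on XX 1, 3.87 on XX 2 and 3.996 on XX 3, and at 5.90, 5.20 and 5.61 on the XY arrays. XX 1 thus lay with the XY arrays on this measure and apart from XX 2 and XX 3. On each of the 3 XX arrays the 15 probe sets of Y-linked genes, which have no Y-linked template there, read at most 47.8, with a median of 8.29. Each member probe set lay above that, from 320 to 16874 on all 6 arrays, and each passed the filter on low values on all 6.

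Of the 9 measured members, 2 fell past the adjusted p of 0.05, Nlrp4f and Nlrp9a, and 0 rose. Among all 12442 genes 5.34% fell and 7.86% rose past that adjusted p in the same limma fit. Nlrp4b, Nlrp4f, Nlrp9a and Nlrp9b had an unadjusted limma p under 0.05, all of them lower in XY. The share of all genes under that unadjusted value was not counted, so no background stands beside it. The log2 change was below 0 for 9 of 9 members, which held for 44.4% of all genes, and the members' median was -0.35 against 0.07 for all genes. The XX and XY values did not overlap for 6 of the 9, against 38.8% of all genes, and all 6 were lower in XY, as were 16.2% of all genes. With no filter on low values 0 of the 10 member probe sets passed, where 1.37% of 45037 probe sets did. The members share the same 6 arrays, so these counts are a description of the list and not independent observations.

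**Figure D1:**
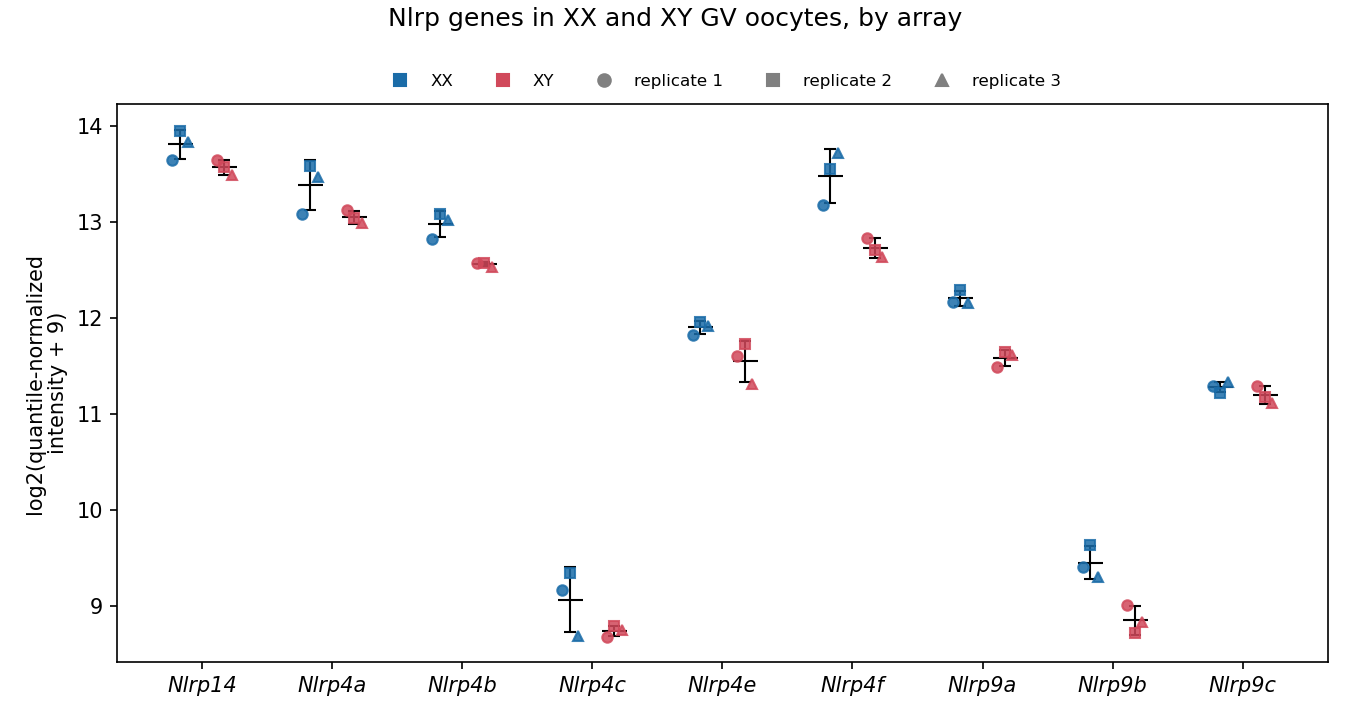
Level of each measured Nlrp gene on each array, as log2(quantile-normalized intensity + 9), with XX in blue and XY in red; symbols give the replicate number, and black bars the mean ± SD (n = 3). The XX and XY points are separate for Nlrp4f, Nlrp9a, Nlrp9b, Nlrp4b, Nlrp4e and, narrowly, Nlrp14; levels of different genes come from different probes and are not comparable with each other.

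Nlrp14, whose maternal loss stops mouse embryos in early cleavage, had deposited intensities of 12580, 16874 and 16411 on the XX arrays and of 13849, 9961 and 10310 on the XY arrays, in replicate order. After normalization the log2 levels were 13.65, 13.95 and 13.83 in XX and 13.64, 13.58 and 13.49 in XY. XX 1 and XY 1 were almost level, and the groups were separated by that narrow gap alone. The log2 change was -0.24 ± 0.15 (SE, n = 3 each; limma's adjusted p = 0.305), with a 95% interval from -0.59 to 0.11.

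Nlrp4f lies on chromosome 13, away from the other members, all of which are on chromosome 7. Its protein has been described in the cytoplasmic lattices of the oocyte, together with components of the subcortical maternal complex. The deposited intensities were 8751, 13195 and 15342 in XX and 7917, 5269 and 5392 in XY, in replicate order. XX 1 was the lowest XX array, yet above each XY array. Nlrp4f had log2 levels of 13.49 ± 0.28 among XX and 12.73 ± 0.10 among XY arrays (SD, n = 3 each) and fell, with the largest change of the 9 genes, at -0.75 ± 0.18 (SE; adjusted p = 0.0391). The level was thus 1.69-fold lower in XY, with a 95% interval of the log2 change from -1.18 to -0.32.

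Among the Nlrp4 genes of chromosome 7, none passed the test. Nlrp4b came nearest, with normalized log2 levels of 12.82, 13.08 and 13.02 in XX and of 12.58, 12.57 and 12.54 in XY. Its groups did not overlap and the XY arrays were tightly grouped. The log2 change was -0.41 ± 0.14 (SE; adjusted p = 0.0959), with a 95% interval from -0.75 to -0.08. Nlrp4e, which lies next to Nlrp5 and whose depletion has been reported to hinder preimplantation development, had log2 levels of 11.83, 11.96 and 11.92 in XX and of 11.60, 11.73 and 11.32 in XY. XY 3 was the low array, and no XY value reached the XX range. The change was -0.35 ± 0.16 (adjusted p = 0.178; interval -0.73 to 0.03).

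Nlrp4a and Nlrp4c overlapped between the groups. Nlrp4a read 13.09, 13.59 and 13.47 in XX and 13.13, 13.04 and 12.99 in XY on the normalized log2 scale, so that XX 1 sat among the XY arrays. Its change was -0.33 ± 0.17 (adjusted p = 0.231; interval -0.74 to 0.08). Nlrp4c read 9.17, 9.35 and 8.69 in XX and 8.68, 8.79 and 8.75 in XY. Here XX 3, and not XX 1, was the XX array within the XY range. Its change was -0.33 ± 0.20 (adjusted p = 0.289; interval -0.79 to 0.14).

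The Nlrp9 genes were not alike. Nlrp9a had deposited intensities of 4117, 5807 and 5950 in XX and of 3009, 2405 and 2505 in XY. Each XY array lay below each XX array, also before any scaling. Nlrp9a fell from a log2 level of 12.21 ± 0.08 to 11.59 ± 0.08 (SD, n = 3 each), a change of -0.62 ± 0.14 (SE; adjusted p = 0.0314; interval -0.95 to -0.29), or 1.53-fold. XX 1, at 12.17, lay between XX 2 at 12.29 and XX 3 at 12.16, so this gene did not show the low XX 1 value seen for Nlrp4f.

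Nlrp9b is known outside the oocyte for its part in the inflammasome response to rotavirus in the intestinal epithelium. It had deposited intensities of 551, 919 and 851 in XX and of 539, 320 and 368 in XY. The normalized log2 levels were 9.41, 9.64 and 9.30 against 9.01, 8.71 and 8.83, without overlap. The change of -0.60 ± 0.16 (SE) was close in size to that of Nlrp9a, but it missed the threshold (limma's adjusted p = 0.0536), with an interval from -0.98 to -0.21. Nlrp4f and Nlrp9a just inside the threshold and Nlrp9b just outside it were thus separated by little.

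Nlrp9c showed the smallest change of the 9 genes. Its brighter probe set had normalized log2 levels of 11.29, 11.22 and 11.33 in XX and of 11.30, 11.18 and 11.11 in XY, so that XY 1 lay within the XX range and XY 2 and XY 3 just below it. The change was -0.09 ± 0.14 (SE; adjusted p = 0.700; interval -0.41 to 0.24). The other Nlrp9c probe set had a change of -0.24 ± 0.17 (adjusted p = 0.500, fitted over 45037 probe sets without the filter), and its 3 XX values, from 10.27 to 10.35, lay above its 3 XY values, from 10.04 to 10.08. The log2 ratio of the brighter to the dimmer probe set averaged 0.99 ± 0.05 over XX and 1.13 ± 0.09 over XY arrays (SD, n = 3 per group), with overlap between the groups.

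In the order of protein-coding genes on chromosome 7 (GRCm38.p6), Nlrp9c, Nlrp4a and Nlrp9a follow each other, with changes of -0.09, -0.33 and -0.62. Ratios of 2 genes within an array were taken from the deposited intensities. Dividing a whole array by a single factor leaves such ratios unchanged, but quantile normalization can change them, and ratios after it were not taken. These pairs were looked at after the values had been seen, as a description. The log2 ratio of Nlrp9a to Nlrp9c was 0.96, 1.03 and 0.76 in XX and 0.20, 0.48 and 0.52 in XY, without overlap. That of Nlrp9a to its neighbour Nlrp4a was -1.01, -1.20 and -1.15 in XX and -1.66, -1.45 and -1.49 in XY, again without overlap. Nlrp9c against Nlrp4a overlapped, with a mean of -2.04 ± 0.17 for XX and -1.93 ± 0.07 for XY (SD, n = 3 per group). The ratio of Nlrp4e to its neighbour Nlrp5 overlapped as well, at -1.53 ± 0.16 and -1.71 ± 0.27. Of the 3 pairs of neighbours, Nlrp9a and Nlrp4a were thus the one whose ratio of deposited intensities separated the groups. How often the ratio of any 2 genes separates the groups was not counted, so no background stands beside these pairs.

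Each gene was also set against the mean log2 intensity of the 9 members on its own array, with no normalization or pseudocount. Relative to the family, Nlrp4f shifted by -0.28 ± 0.08, Nlrp9a by -0.28 ± 0.07 and Nlrp9b by -0.21 ± 0.09 (SE, n = 3 each) from XX to XY. Nlrp14 shifted by 0.28 ± 0.06, Nlrp9c by 0.24 ± 0.09 and Nlrp4a by 0.14 ± 0.04 in the other direction. Shifts from a mean of the same 9 genes cancel out by construction, so some must be positive. In the deposited values Nlrp14, Nlrp9c and Nlrp4a had log2 changes of -0.43, -0.47 and -0.58. A positive shift here thus stands for a smaller fall than the family mean and not for a rise. The 6 genes named so far did not overlap between the groups. Each had an exact two-sided permutation p of 0.1, the smallest that 3 arrays against 3 can give, or 0.15 adjusted over the 9 tests. Of all genes set against the same family mean, 57.4% did not overlap. The members are part of that mean and nearly all other genes are not, so the shares are not like measures. The 6 of 9 is thus not read as a result about the members. Nlrp4b (0.03), Nlrp4c (0.08) and Nlrp4e (0.00) overlapped, with exact permutation p of 0.3, 0.7 and 1.

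**Figure D2:**
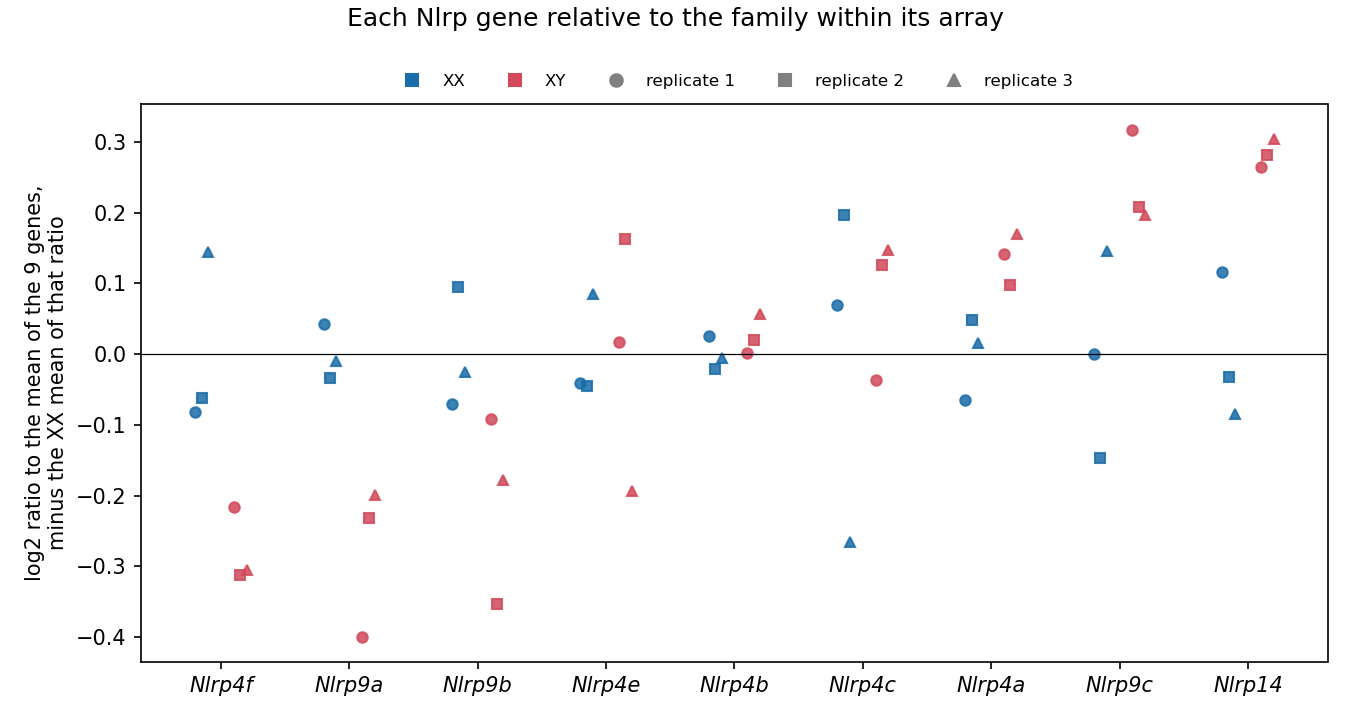
Log2 ratio of each gene's deposited intensity to the mean of the 9 Nlrp genes on the same array, minus that gene's XX mean, with XX in blue, XY in red and symbols for the replicate number. Nlrp4f, Nlrp9a and Nlrp9b lie to the left with XY below XX, and Nlrp4a, Nlrp9c and Nlrp14 to the right with XY above XX.

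The starts of these genes are shown because some members have like upstream sequence, which lets their changes be read beside it. RefSeq promoter windows of GRCm38.p6 were found for 9 of the 10 genes, 11 windows in all, and the 250 bases before the annotated start were compared. Nlrp14 had no window. CCAAT, the box bound by the factor NF-Y, and CANNTG, the E-box to which the oocyte regulator Figla binds with its partner, were searched on both strands. CCAAT stood in 8 of the 11 windows and in 33.8% of 32851 windows of the same length, and CANNTG in 9 of 11 and in 66.2%. A match is a stretch of letters and not a measured binding site. The most alike pair was Nlrp9a (chr7:26534773-26535022, plus strand) and Nlrp9c (chr7:26403701-26403950, minus strand), with 195 of 250 bases identical after global alignment, or 78.0%, against a median of 53.2% over 53 pairs of windows from different members. Capitals mark CCAAT (or its reverse complement) and CANNTG, and the 2 did not overlap in any member window.
Nlrp9a: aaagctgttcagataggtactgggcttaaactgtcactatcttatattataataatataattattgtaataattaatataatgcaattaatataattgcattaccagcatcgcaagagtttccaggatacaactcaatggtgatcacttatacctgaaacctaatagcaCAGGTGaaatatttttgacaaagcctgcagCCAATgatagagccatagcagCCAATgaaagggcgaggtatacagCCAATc
Nlrp9c: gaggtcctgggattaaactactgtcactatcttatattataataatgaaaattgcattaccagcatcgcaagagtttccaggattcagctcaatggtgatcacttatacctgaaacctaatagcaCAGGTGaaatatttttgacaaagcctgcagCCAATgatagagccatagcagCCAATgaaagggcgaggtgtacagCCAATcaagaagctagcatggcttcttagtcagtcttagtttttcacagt
Both windows hold 3 CCAAT boxes on the plus strand of the gene and 1 E-box, in the same order and with the same spacing. The changes of these genes were -0.62 for Nlrp9a and, for Nlrp9c, -0.09 by its brighter and -0.24 by its dimmer probe set.

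Windows of 3 Nlrp4 genes of chromosome 7 were also alike. Nlrp4a at its downstream start (chr7:26435364-26435613, plus strand) and Nlrp4b at its upstream start (chr7:10687543-10687792, plus strand) shared 72.8% of bases, Nlrp4b and Nlrp4c (chr7:6044911-6045160, plus strand) 67.6%, and Nlrp4a and Nlrp4c 64.8%. All 3 genes hold the run CCAATCACATGG, in which a CCAAT box touches an E-box. It was picked after the sequences had been seen, and it stood in 4 of the 11 member windows, 2 of them overlapping windows of Nlrp4b, and in 6 of all 32851; the other two were of Oscp1 and Dcxr.
Nlrp4a: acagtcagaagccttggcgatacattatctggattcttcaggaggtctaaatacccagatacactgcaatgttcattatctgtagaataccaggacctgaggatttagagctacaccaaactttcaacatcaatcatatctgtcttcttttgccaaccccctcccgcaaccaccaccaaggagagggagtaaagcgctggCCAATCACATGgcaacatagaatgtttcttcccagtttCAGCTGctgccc
Nlrp4b: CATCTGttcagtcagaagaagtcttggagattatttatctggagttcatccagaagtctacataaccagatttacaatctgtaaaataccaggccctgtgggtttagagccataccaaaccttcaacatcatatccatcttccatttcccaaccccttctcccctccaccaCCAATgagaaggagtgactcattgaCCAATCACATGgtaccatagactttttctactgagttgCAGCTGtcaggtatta
Nlrp4c: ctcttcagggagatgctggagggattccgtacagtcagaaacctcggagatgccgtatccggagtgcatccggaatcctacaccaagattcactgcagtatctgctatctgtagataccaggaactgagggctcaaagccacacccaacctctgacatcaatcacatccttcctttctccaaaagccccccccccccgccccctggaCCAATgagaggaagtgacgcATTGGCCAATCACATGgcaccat
In the same order, the changes were -0.33, -0.41 and -0.33, none of them past the threshold. Nlrp4f, which fell most, is shown for contrast (chr13:65205717-65205966, minus strand). Its window holds 1 E-box and no CCAAT.
Nlrp4f: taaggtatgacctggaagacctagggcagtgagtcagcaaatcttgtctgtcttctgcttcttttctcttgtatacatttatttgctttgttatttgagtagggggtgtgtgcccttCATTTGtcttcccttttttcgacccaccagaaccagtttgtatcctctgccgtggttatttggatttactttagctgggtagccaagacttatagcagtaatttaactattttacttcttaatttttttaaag

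The calls of Nlrp4f and Nlrp9a were lost without any 1 array other than XX 1, while their direction stayed. Without XX 1 both passed (adjusted p = 0.0101 and 0.0207), with log2 changes of -0.90 and -0.63, and Nlrp4a, Nlrp4b and Nlrp9b passed as well (0.0419, 0.0333 and 0.0452). Neither passed without XX 2 (0.107 for Nlrp4f and 0.0882 for Nlrp9a), XX 3 (0.100 and 0.0655), XY 1 (0.0803 and 0.102), XY 2 (0.114 and 0.0932) or XY 3 (0.118 and 0.0973). With the Actb ratio as a covariate Nlrp4f had -0.51 ± 0.21 (adjusted p = 0.234) and Nlrp9a had -0.55 ± 0.17 (0.151). With XX 1, the XX array closest to XY in that ratio, as the lone XX array, Nlrp4f had -0.45 ± 0.16 (0.183) and Nlrp9a -0.60 ± 0.15 (0.109). A lone array is taken to vary like the XY arrays in that fit. The value of Nlrp4f was thus smaller in both of these settings, and that of Nlrp9a was near its value with all arrays. All 9 members stayed below 0 in each of the 19 alternatives run, some of them close to it. Nlrp4a moved from -0.33 to -0.08 with the Actb covariate and to -0.04 with XX 1 alone, and Nlrp14 from -0.24 to -0.10 and -0.09. Nlrp4b moved from -0.41 to -0.27 with the covariate. Nlrp4c had -0.19 without XX 2 and -0.51 without XX 3, and Nlrp9c -0.14 without XY 1 and -0.04 without XY 3.

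**Figure D3:**
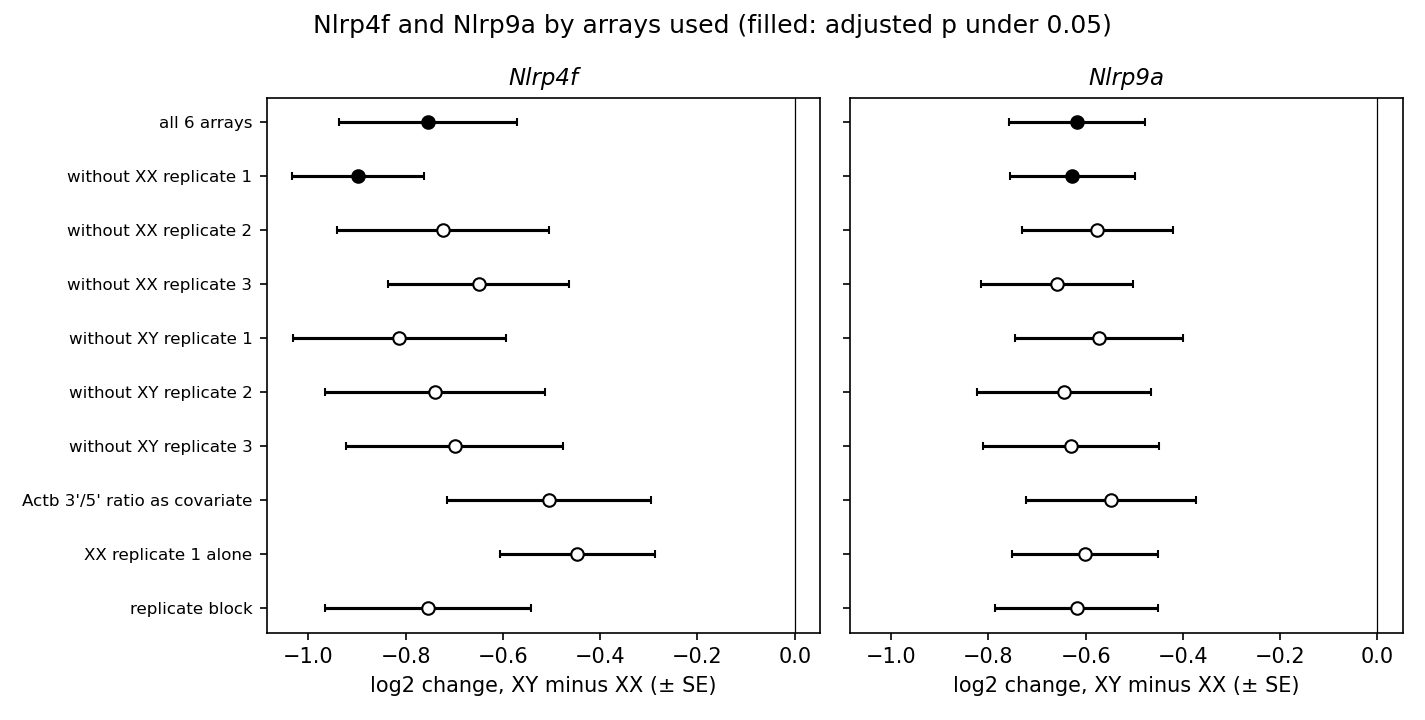
Log2 change of Nlrp4f and Nlrp9a, XY minus XX, with its SE, for all 6 arrays, without each array in turn, with the Actb 3′ to 5′ ratio as a covariate, with XX 1 alone against XY, and with the replicate number as a block; filled points have a limma adjusted p under 0.05. Nlrp4f runs from -0.90 to -0.45 and Nlrp9a from -0.66 to -0.55.

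How the arrays are put on one scale changed the sizes. With the deposited values the members' median change was -0.69, where all genes had -0.12, and 1 member passed, Nlrp9a (-0.99, adjusted p = 0.0444), with Nlrp4f at -0.99 (0.0593). With each array divided by its median the members' median was -0.85, where all genes had -0.27, and 6 passed: Nlrp4b, Nlrp4c, Nlrp4e, Nlrp4f, Nlrp9a and Nlrp9b. With trimmed mean scaling the members' median was -0.37, where all genes had 0.18, and Nlrp4f (-0.68) and Nlrp9a (-0.68) passed. Relative to the median of all genes, the members' median was -0.42 after quantile normalization and -0.57, -0.58 and -0.55 under these 3 scalings. The members thus lay below the middle of all genes in each. Over all genes, 978 were higher and 665 lower after quantile normalization, 472 higher and 529 lower in the values as deposited, 482 higher and 1622 lower once medians were equal, and 1425 higher and 586 lower once trimmed means were equal.

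**Figure D4:**
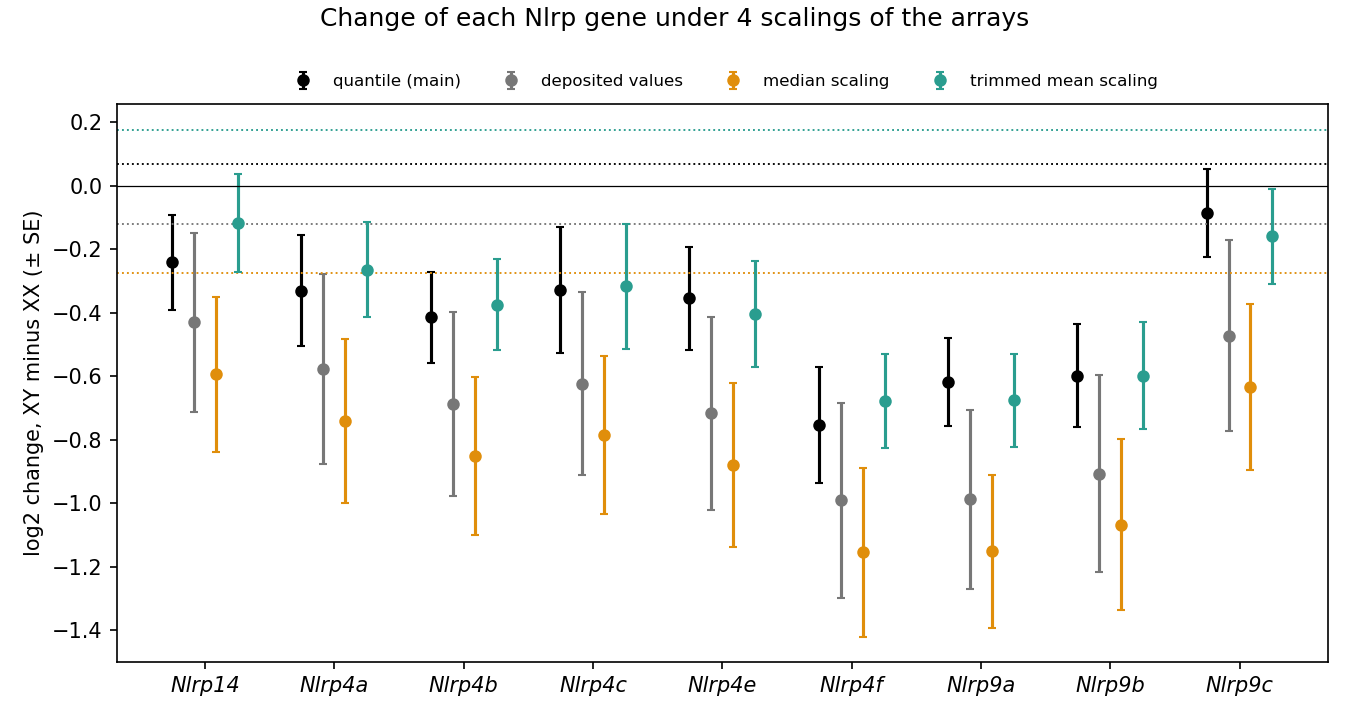
Log2 change of each Nlrp gene, XY minus XX, with its SE under 4 scalings of the arrays: quantile normalization (black), deposited values (grey), median scaling (orange) and trimmed mean scaling (green). Dotted lines in the same colours give the median change of all genes, from -0.27 to 0.18; Nlrp4f, Nlrp9a and Nlrp9b are lowest in all 4.

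The genes of the subcortical maternal complex, of which Nlrp5 alone is an Nlrp gene, did not move as a block. Of the 6 genes of that list, each of them tested, 1 rose and 0 fell, and the median of their log2 changes was -0.02. With a trended variance, 1 of the 19 alternatives, 1 gene of the list was called lower. Nlrp5 itself had log2 levels of 13.39, 13.57 and 13.51 in XX and of 13.12, 13.23 and 13.23 in XY, without overlap, and a change of -0.30 ± 0.14 (SE; adjusted p = 0.188). The KH-domain gene Ooep (-0.04), the corepressor relative Tle6 (0.08), the peptidylarginine deiminase gene Padi6 (0.00) and Zbed3 (-0.05) had changes near 0. Khdc3, also called Filia, rose by 1.85 ± 0.23 (adjusted p = 0.0065), with all 3 XY arrays above all 3 XX arrays. With the Actb covariate or XX 1 alone this list had 0 genes called higher.

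Other NLR genes, most of which act in innate immunity, were dim in these oocytes where they had a probe set. Nlrp4d and Nlrp4g, listed with them, had none. Of 19 listed, 12 had a probe set and 4 passed the filter, of which 0 rose and 0 fell in the limma fit. Nlrp3 alone had an unadjusted p under 0.05 and is named for that after its values were seen, with log2 levels of 5.90 ± 0.06 for XX and 6.48 ± 0.33 for XY (SD, n = 3 per group; change 0.58, adjusted p = 0.0878). Under trimmed mean scaling 1 of these genes was called higher. Among inflammasome and NF-kB partners, 12 of 19 were tested and Nek7, a kinase that binds NLRP3 during inflammasome assembly, rose by 0.76 ± 0.16 (adjusted p = 0.0266). The list had 0 genes called higher with no filter, the mean of probe sets, the replicate block or the Actb covariate, without XX 2 or any 1 XY array, or with XX 1 alone. Casp1, the protease that inflammasomes activate, had log2 levels of 4.46 ± 0.67 for XX and 5.60 ± 0.23 for XY (SD, n = 3 per group), a change of 1.14 without overlap (limma's adjusted p = 0.0616). Its deposited intensities were 21.7, 4.32 and 13.1 in XX and 47.6, 33.7 and 44.7 in XY. Each lay below 47.8, the highest Y-linked value on XX arrays, so Casp1 read at the level of background. Casp1 is named for its unadjusted p under 0.05 after its values were seen, as is Dtx4 (0.53, adjusted p = 0.135). The Casp1 substrates Il1b (0.20) and Il18 (0.25) overlapped between the groups. Of the 16 list genes with a probe set, 4 did not pass the filter: Pycard, the adaptor that links Nlrp proteins to caspase-1, and Casp4, Gsdmd and Aim2.

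Markers of the oocyte and of neighbouring cells were read beside these values. All 11 oocyte markers were tested and 2 fell, X-linked Bmp15 (-1.34) and the kinase gene Mos (-0.85), while 0 rose. H1f8 missed the threshold at -0.74 without overlap (limma's adjusted p = 0.0535). A change below 0 was found for 9 of the 11, against 44.4% of all genes, with a median of -0.12. The groups did not overlap, in either direction, for 6 of the 11, against 38.8% of all genes. The summed normalized intensity of the oocyte markers was 74977 to 80382 in XX and 65987 to 68924 in XY. Markers of granulosa and cumulus cells summed to 804 to 858 in XX and 959 to 1157 in XY. Of 13 with a probe set, 9 were tested, 8 of them had a change above 0, and Inha rose (1.58). Fshr had 0.89 with overlap (limma's adjusted p = 0.108). Kitl went the other way, at -0.63 without overlap (limma's adjusted p = 0.0715). In 4 of the 19 alternatives 1 gene of this list was called lower. Amh, Inhba, Ptx3 and Tnfaip6 did not pass the filter. Markers of theca and stroma summed to 310 to 364 against 476 to 659, and 4 of 7 were tested, all with a change above 0. Dcn came to the edge of the threshold (1.85 ± 0.49, SE; adjusted p = 0.050001) without overlap, and 1 gene of this list was called higher in 9 of the 19 alternatives; Cyp17a1, Col1a1 and Pdgfra did not pass the filter. Markers of macrophages and blood cells summed to 354 to 486 against 627 to 745. Of these 8, 4 were tested, all above 0, and Csf1r (1.40) and Cd68 (0.59) rose. As deposited, Cd68 read 27.2 to 39.3 in XX and 54.4 to 66.8 in XY. Its XX values thus lay below 47.8, the highest Y-linked value on XX arrays. Ptprc, Cd14, Itgam and Tyrobp did not pass the filter. With the Actb covariate or with XX 1 alone none of the 4 lists had a call in these directions. Leaving out single arrays gave 1 to 4 oocyte markers lower, 0 to 2 granulosa or macrophage markers higher and 0 to 1 theca or stroma markers higher. The sums of all 3 lists of other cells were higher in XY without overlap, and their part in the Nlrp values was not tested.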

How the data were processed

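The deposited table holds 1 intensity on a linear scale for each probe set and array, made with MAS5 per the submitters' processing notes; its settings and detection calls were not stated in what was used here. All 6 columns were used. Of 45101 probe sets, 64 controls were left out; 34945 of the rest carried 1 gene symbol, 932 several and 9160 none listed, and 34741 probe sets were matched to a current gene by gene ID.

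The deposited intensities, which did not share a level, were quantile-normalized and compared as log2(intensity + 9), where 9 is their 25th percentile, so that changes of dim genes are understated. A probe set was kept where it reached the median of its array on 3 or more of the 6 arrays, and the brightest on average stood for its gene. XY was compared with XX by limma 3.58.1 in R 4.3.3 (lmFit, eBayes) over 12442 genes, with Benjamini-Hochberg adjustment at 0.05; probe sets were also fitted without the filter. Promoter windows were aligned with Biopython 1.88. The fit was tested on simulated data. With 3 arrays in a group, precision is limited by their number.

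Members, lists and the rule for named genes (all members, all of the maternal complex, and of each other list the genes past the threshold, at most 6) were chosen with earlier results of these data known. The 19 alternatives changed the scaling, the pseudocount, the low-value filter, the choice among probe sets, the variance model, weights for arrays, a block for replicate number, a covariate for the Actb ratio, or the arrays used.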

Additional observations from a re-analysis of the deposited data

How the results depend on the processing

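Of 171 comparisons of a member gene's change with its main value (9 genes in 19 alternatives), 138 kept their side of the threshold, 19 lost the call, 14 gained it and 0 changed direction. The count of members lower in XY, 2 in the main setting, was 1 with the deposited values, 6 with median scaling, 4 with a trended variance or array weights, and 0 with no filter, the Actb covariate or XX 1 alone. Leaving out 1 array gave 0 to 5 (5 without XX 1). The count of members higher in XY was 0 throughout. The count of all genes past the threshold, 1643, was 1001 with the deposited values, 913 with no filter, 3264 with array weights, 236 with the Actb covariate and 164 with XX 1 alone, and 472 to 3307 without 1 array. With the replicate number as a block, 0 members and 679 genes passed, with unchanged log2 changes and adjusted p of 0.0941 for Nlrp4f and 0.0880 for Nlrp9a. Deviations of same-numbered XX and XY arrays from their group means correlated at -0.10, 0.00 and -0.04. No XX array correlated best with the XY array of its own number. With 3 arrays per group these values cannot show whether the arrays were paired. With no filter 18193 genes were tested in place of 12442, so the adjustment ran over more genes. The SE also rose, from 0.183 to 0.196 for Nlrp4f and from 0.139 to 0.153 for Nlrp9a. The cause of the lost calls and of the other differences was not tested. The lowest member value, 320, lay above the highest Y-linked value on XX arrays, 47.8. Whether signal that is not the gene's own limited the member values was not tested.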

Other observations

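Genes whose mean level was at least that of the dimmest member numbered 4623. Their median log2 change was 0.05. Past the adjusted p, 5.99% of them fell and 6.42% rose, where 2 of the 9 members fell and 0 rose. The share of these 4623 genes with a change below 0 was not counted, so no background from them stands beside the 9 of 9 members below 0. This group was set after the values had been seen.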
